A study of Arabidopsis thaliana with 30 samples.

Results

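Rosettes of the double transgenic line oePsbSoeβCA1, made to overexpress PsbS and the carbonic anhydrase βCA1, were compared with those of wild-type Col-0. Both were watered without bicarbonate. The comparison takes the water-treated libraries labelled oePsbS, oeCA1 (3) and Col-0 (3), that is 6 of the 30 libraries of the series. The other 24 libraries cover npq4-1, oePsbS, the triple line oePsbSoeβCA1βCA2 and the same 5 genotypes given 3 mM bicarbonate. All plants received 10 ml of water or bicarbonate every 2 days from the age of 2 weeks, under a 16 h day at 120 µmol photons per square metre and second, and were 4 weeks old. The double line carries the βCA1 coding sequence behind the viral 35S promoter, which is active in most tissues, in plants of the oePsbS line. Col-0 carries neither transgene. Lines with high βCA1 expression were chosen for study, and which of them gave the sequenced RNA, or whether plants were pooled, is not stated. The study's methods call the 3 samples per group biological, with technical repeats, and do not say whether a sample was 1 plant or a pool, so p-values describe the spread among these 3 samples.

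PsbS, encoded by NPQ4, is a thylakoid membrane protein that senses a falling pH in the thylakoid lumen and switches the light-harvesting antenna of photosystem II into a state that releases excess light as heat. βCA1, encoded by CA1, is an abundant stromal enzyme that interconverts carbon dioxide and bicarbonate. Together with βCA4 it is also known for its part in the closing of stomata by carbon dioxide. The comparison asks which other transcripts differ in the line carrying both transgenes when no bicarbonate is supplied. By immunoblot, the study found far less PsbS protein in the double line than in oePsbS, close to the Col-0 amount. It also measured PsbS RNA by qPCR in these lines. In Col-0 lines overexpressing βCAs it reported lower PsbS RNA and protein, and in βCA knockout mutants higher PsbS expression. It proposes a link between βCAs and PsbS that acts at least partly through PsbS expression. The libraries here measure RNA only, so a high NPQ4 level does not stand for high PsbS protein.

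Total estimated counts lay between 15610241 and 17120125 in Col-0 and between 16563876 and 16965644 in the double line. Summed levels of 5 leaf mesophyll markers, such as the small subunit of Rubisco, were 39475 to 42357 CPM (library-size scaled counts, the unit of levels throughout) in Col-0 and 39919 to 42493 CPM in the double line. Of 8 root markers 7, and of 6 seed markers 6, stayed under 1 CPM in all 6 libraries. Of 11 floral organ markers 5 did so, and their sum was 4.39 to 15.4 CPM in Col-0 and 2.72 to 8.99 CPM in the double line. The floral regulator AG was at 3.97, 2.13 and 3.65 CPM in Col-0 and 1.81, 1.92 and 1.36 CPM in the double line (−0.94, SE 0.30, adjusted p = 0.402), and the part of floral tissue in the results was not tested. Levels are given as CPM after TMM scaling. Log2 fold changes (double line minus Col-0), their standard errors (SE) and adjusted p-values are from edgeR's quasi-likelihood test of these 6 libraries. Genes are called where the adjusted p is below 0.05 and the difference exceeds 2-fold. In bulk rosettes, fewer cells of a type and less RNA per cell cannot be told apart.

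Very few genes were called in edgeR's test. Of 18114 genes tested, 12 were called (0.0662%), 5 of them higher (0.0276%) and 7 lower (0.0386%) in the double line. The higher genes were βCA1 (CA1), NPQ4, the calreticulin CRT3, the orphan gene QQS and the uncharacterized gene AT3G01345. The lower genes were RD20, TSPO, SAG29, NATA1, ST2A, AT1G62290 and AT5G15500. The median log2 fold change of all tested genes was −0.0011.

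The transcripts of CA1 differ in their coding ends, and reads of the double line were assigned to other CA1 transcripts than those of Col-0. The gene lies on the minus strand at chr3:194426-198664 (TAIR10.1), and transcripts AT3G01500.2 and AT3G01500.3 share 1005 coding bases. Transcript AT3G01500.2 then joins a last coding exon at chr3:194853-194891, while AT3G01500.3 reads on for 6 bases (chr3:195173-195178) to a stop codon. The last 30 shared coding bases (chr3:195179-195208) are shown in lower case and the bases that follow in each transcript in capitals, of which the first 2 are the same in both, to show where the open reading frames part.
AT3G01500.2: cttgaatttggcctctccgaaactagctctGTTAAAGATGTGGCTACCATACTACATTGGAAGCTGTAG
AT3G01500.3: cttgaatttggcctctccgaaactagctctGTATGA
In Col-0 transcript AT3G01500.3 stood at 1716, 1653 and 1804 TPM (the abundance relative to all transcripts, as the authors deposited it), which was 77.7% to 81.7% of the CA1 TPM. In the double line it was at 0, 88.5 and 4.12 TPM. Transcript AT3G01500.2, whose coding sequence is 1044 bases long, was at 10513, 6735 and 10765 TPM in the double line, against 148, 227 and 252 TPM in Col-0. Transcript AT3G01500.4, with a coding sequence of 780 bases, was at 95.4 to 172 TPM in Col-0 and 2038 to 2435 TPM in the double line. Salmon splits reads between transcripts that share exons, so these are shares of an estimate and were not tested.

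**Figure D1:**
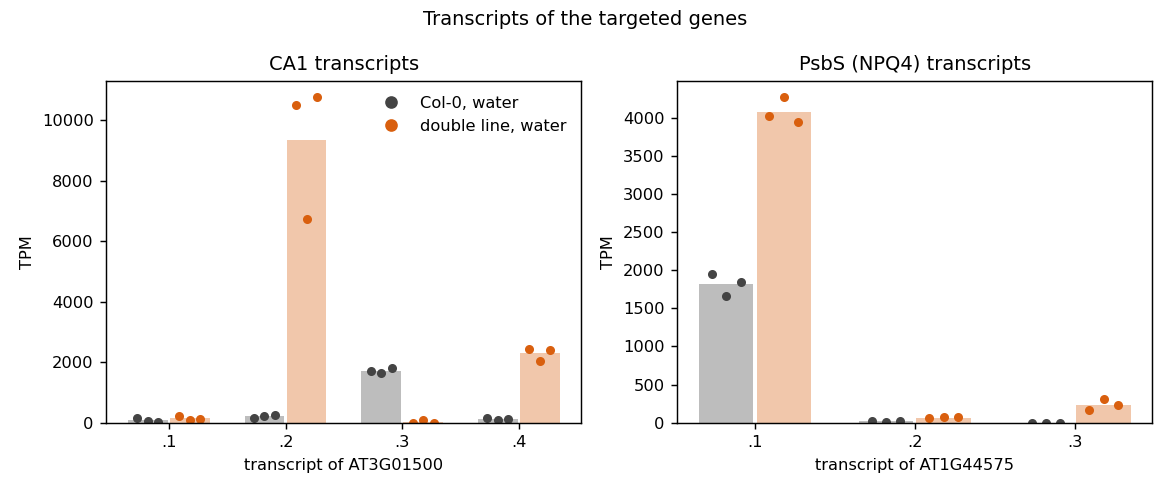
Levels in TPM (bars, means of 3 water libraries; points, libraries) of the transcripts of CA1 (left) and PsbS (NPQ4, right) in Col-0 and the double line. Transcript AT3G01500.3 is the main CA1 transcript of Col-0, at 1653 to 1804 TPM, and AT3G01500.2 that of the double line, at 6735 to 10765 TPM, while AT1G44575.1 is the main NPQ4 transcript of both.

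Summed over transcripts, βCA1 (CA1) rose most among the targeted genes. It stood at 3059, 2900.1 and 3051 CPM in Col-0 and at 16804, 10940 and 16545 CPM in the double line. Replicate 2 was the lowest of the double line, and still lay far above every Col-0 library. The log2 fold change was 2.297 (SE 0.15, adjusted p = 2.60e-05). NPQ4 stood at 1740.1, 1513 and 1604 CPM in Col-0 and at 3883, 4083 and 3776 CPM in the double line. The groups did not overlap, and the log2 fold change was 1.27 (SE 0.079, adjusted p = 2.57e-05). When the spread was instead taken from all 15 water or all 30 libraries, which include npq4-1 with NPQ4 at 0.120 to 6.28 CPM, the adjusted p of NPQ4 was 0.161 or 0.0611. In the fit of all 30 libraries 8 genes were called (0.0421%), 4 in each direction (0.0211%). Against oePsbS with water, NPQ4 differed by −0.052 (SE 0.068, adjusted p = 0.724) and CA1 by 2.58 (SE 0.14, adjusted p = 3.23e-06). Against oePsbS the double line had 142 called genes in all (0.784%), of which 47 were higher (0.259%) and 95 lower (0.524%). βCA2 (CA2), which the construct does not carry, was at 1265, 1184 and 1192 CPM in Col-0 and 1322, 1255 and 1155 CPM in the double line. These ranges overlapped, and its log2 fold change was 0.036 (SE 0.075, adjusted p = 0.942). The triple line, also labelled as overexpressing CA1, had 3611, 4071 and 3814 CPM of CA1, between Col-0 and the double line.

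**Figure D2:**
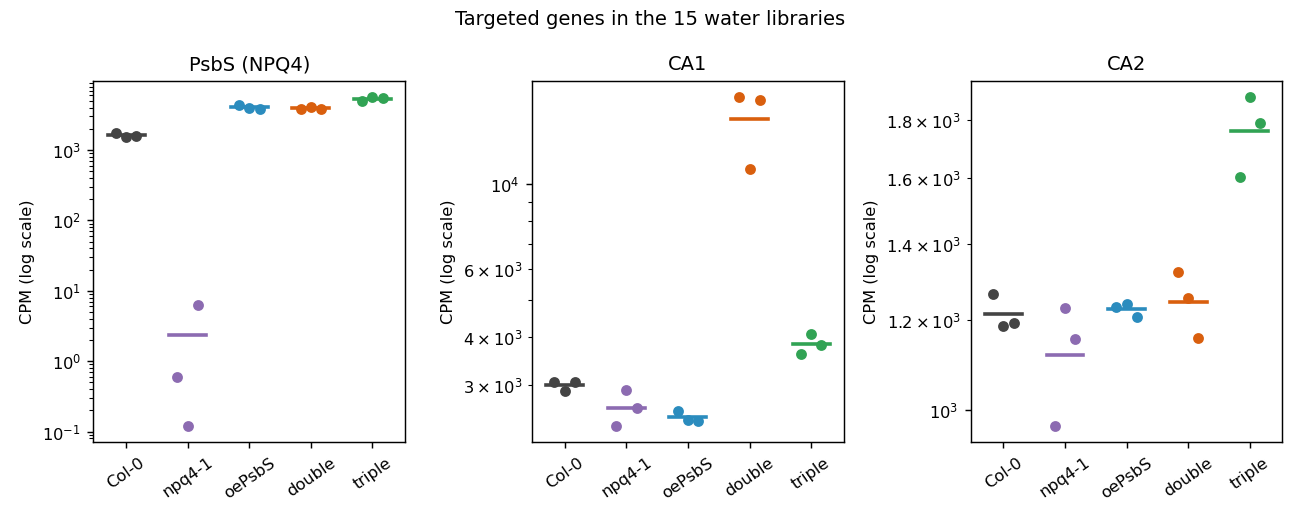
Levels in CPM (log axis; points, libraries; lines, means) of PsbS (NPQ4), CA1 and CA2 in the 15 water libraries by genotype. The double line lies at 3776 to 4083 CPM of NPQ4 and 10940 to 16804 CPM of CA1, above all Col-0 libraries, while CA2 overlaps between these groups.

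NPQ4 (chr1:16870221-16873427, plus strand, TAIR10.1) also differed in its transcripts. Its transcript AT1G44575.3, with the same coding length of 798 bases as AT1G44575.1 but another start of transcription, was listed at 0 TPM in the 3 Col-0 libraries. In the double line it was at 164, 306 and 239 TPM, or 3.87% to 6.60% of the NPQ4 TPM. It was at 471 to 555 TPM in oePsbS. The main transcript AT1G44575.1 stood at 1951, 1667 and 1849.6 TPM in Col-0 and at 4020.1, 4265 and 3938 TPM in the double line.

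The nearest tested genes on either side of the targeted loci did not pass the test. The genes next to NPQ4, AT1G44542 and AT1G44608, were at 0 to 0.114 and 0 to 0.438 CPM in the 6 libraries and were too low to be tested. For CH1, the chlorophyllide a oxygenase, and PUP11, a purine permease, the log2 fold changes were 0.040 (SE 0.069) and 0.048 (SE 0.11). Beside CA1, CYP38, AT3G01490 and LSF1 had log2 fold changes of 0.064 (SE 0.070), 0.19 (SE 0.13) and 0.073 (SE 0.089). LSF1 shares 343 bases with the longest CA1 transcript, so reads there can be given to either gene. It stood at 26.9 to 31.8 CPM in Col-0 and 29.8 to 32.5 CPM in the double line.

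CRT3, a calreticulin of the endoplasmic reticulum that assists the folding of receptor kinases such as the immune receptor EFR, was high in the double line and in none of the other genotypes. The gene lies at chr1:2667798-2671957 on the minus strand (TAIR10.1). It stood at 110.4, 88.6 and 88.1 CPM in Col-0 and at 619.7, 509 and 502 CPM in the double line. The groups lay far apart, with replicate 1 the highest in both. The log2 fold change was 2.51 (SE 0.11, adjusted p = 1.92e-06), and against oePsbS it was 2.13 (SE 0.094, adjusted p = 1.12e-06). The other water libraries were at 150.5 to 168 CPM in npq4-1, 116 to 134 CPM in oePsbS and 85.2 to 104 CPM in the triple line, so that the double line was above all 12 other water libraries. Of the 21 tested genes of the list of endoplasmic reticulum folding, CRT3 alone was called, and the list's median was 0.079. The next member by p, the co-chaperone ERDJ3B, had a log2 fold change of 0.17 (SE 0.075, adjusted p = 0.612).

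QQS, an orphan gene of Arabidopsis thaliana known to affect the partition of carbon and nitrogen between starch and protein, was high in the 3 lines labelled as overexpressing PsbS. It has 59 codons in its transcript AT3G30720.1, at chr3:12349461-12349478 and chr3:12349565-12349726 on the plus strand (TAIR10.1). Its whole open reading frame is short enough to show, with the start and stop codons in capitals.
QQS: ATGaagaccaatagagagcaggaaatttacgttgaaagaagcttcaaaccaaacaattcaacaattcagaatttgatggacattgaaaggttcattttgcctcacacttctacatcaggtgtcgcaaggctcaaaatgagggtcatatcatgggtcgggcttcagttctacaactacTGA
QQS was at 2.37, 5.84 and 3.25 CPM in Col-0 and at 46.5, 51.3 and 58.5 CPM in the double line. The lowest library of the double line was far above the highest of Col-0, and the log2 fold change was 3.77 (SE 0.22, adjusted p = 1.75e-05). The level was 1.704 to 5.64 CPM in npq4-1, 41.4 to 48.3 CPM in oePsbS and 51.8 to 53.6 CPM in the triple line. Against oePsbS the log2 fold change was 0.18 (SE 0.10, adjusted p = 0.316), so a difference between these lines was not shown. All 3 annotated QQS transcripts were higher in each library of the double line than in any of Col-0. Transcript AT3G30720.1 was at 4.29 to 13.8 TPM in Col-0 and 92.9 to 129.8 TPM in the double line.

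AT3G01345, annotated as an uncharacterized protein at chr3:129138-130749 (TAIR10.1), had 10 estimated reads in the 3 Col-0 libraries together and 6940 in the 3 libraries of the double line. Per total count this is a ratio of 675 (95% interval 367 to 1409, an exact interval for counting error only). In CPM it stood at 0.192, 0.0628 and 0.343 in Col-0 and at 134, 159 and 127 in the double line. It was also at 144 to 170.1 CPM in npq4-1, 174 to 197 CPM in oePsbS and 128 to 209 CPM in the triple line. All 12 other water libraries thus lay far above the 3 of Col-0. The fitted log2 fold change was 9.37 (SE 0.21, adjusted p = 1.98e-09), a value that depends on the handling of the few Col-0 reads. The gene lies 63677 bases from the CA1 locus.

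AT1G62290, a saposin-like aspartyl protease at chr1:23009885-23013601 (TAIR10.1), was likewise at one level in Col-0 and another in the other genotypes. It was at 14.3, 15.6 and 13.6 CPM in Col-0 and at 5.63, 5.93 and 5.45 CPM in the double line, a log2 fold change of −1.35 (SE 0.12, adjusted p = 0.000969). The other 9 water libraries lay between 4.02 and 8.34 CPM, all below Col-0. Counted by the adjusted p alone, 16 genes passed (0.0883%), and the 4 that the 2-fold threshold left out are named after their values were seen. AT1G62250, an orotidine phosphate decarboxylase 12176 bases from AT1G62290, was at 27.5, 29.1 and 21.6 CPM in Col-0 and 50.8, 48.7 and 53.5 CPM in the double line (0.97, SE 0.11, adjusted p = 0.00450). In the other 9 water libraries it was at 38.0 to 48.9 CPM, also above Col-0. AT1G62250 shares 928 bases with its neighbour AT1G62240, so reads there can be given to either.

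The calcium pump gene ECA4 was at 42.5, 43.2 and 43.5 CPM in Col-0, and at 26.5, 25.7 and 25.6 CPM in the double line. Its log2 fold change was −0.73 (SE 0.073, adjusted p = 0.00206). It was at 23.2 to 28.4 CPM in oePsbS and the triple line, and at 42.8 to 46.9 CPM in npq4-1. ECA4 is 94.6% identical to ECA1 over 92.3% of its transcript, so its reads are uncertain. AT2G41190 and AT3G28270 had log2 fold changes of −0.90 (SE 0.10, adjusted p = 0.00616) and −0.85 (SE 0.10, adjusted p = 0.00991).

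**Figure D3:**
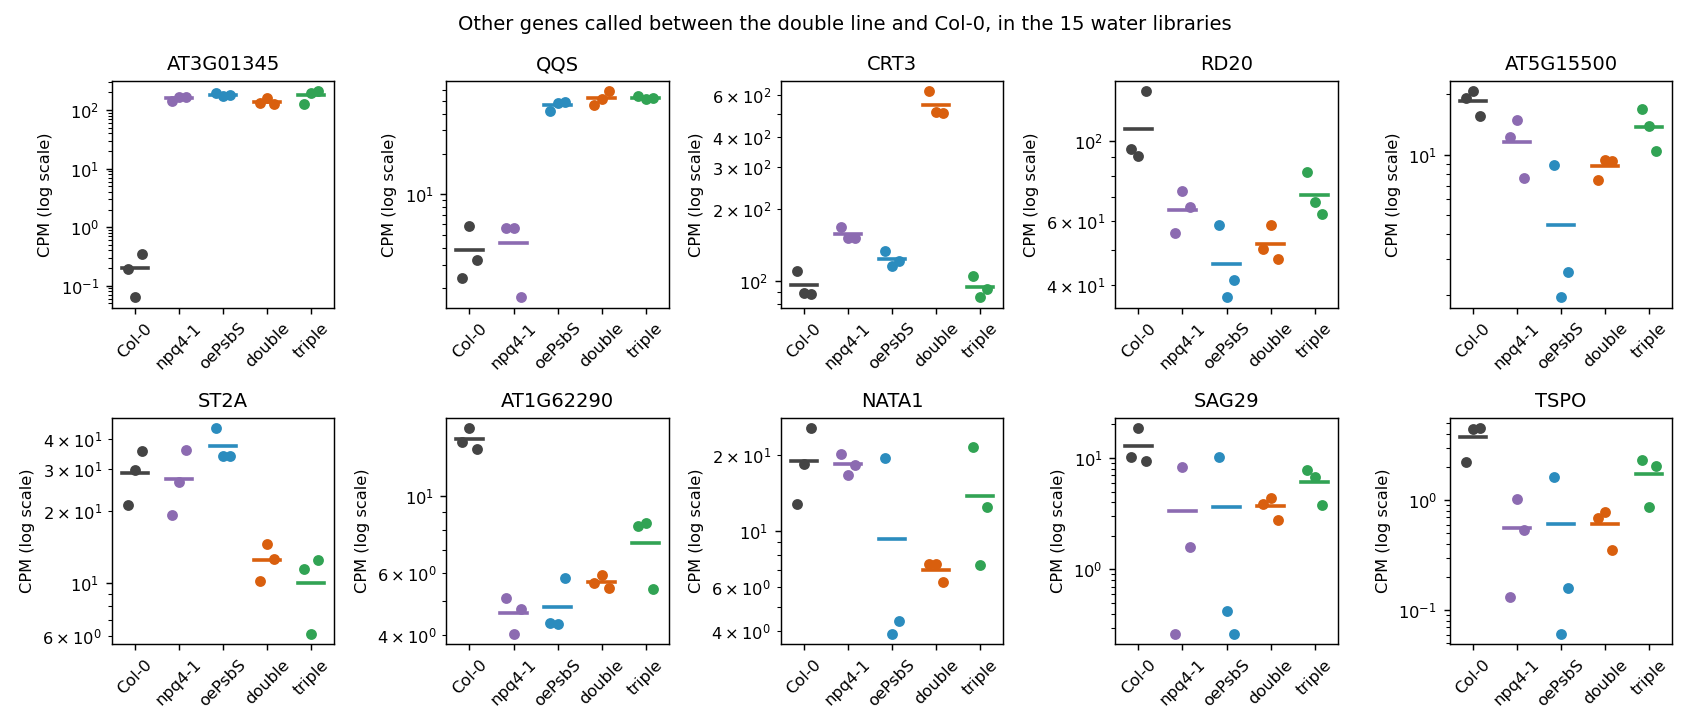
Levels in CPM (log axes; points, libraries; lines, means) of the 10 called genes other than NPQ4 and CA1 in the 15 water libraries by genotype. CRT3 is high in the double line alone, at 502 to 619.7 CPM, and AT3G01345 is near 0 in Col-0 alone. QQS is high in the 3 lines labelled as overexpressing PsbS, at 41.4 CPM or more.

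The other 6 genes called lower were expressed at modest or low levels. RD20, a caleosin of lipid droplets induced by drought and abscisic acid, was at 94.9, 90.7 and 137 CPM in Col-0 and 50.3, 58.5 and 47.3 CPM in the double line. Its log2 fold change was −1.05 (SE 0.15, adjusted p = 0.0278), without overlap of the groups. The 9 libraries of npq4-1, oePsbS and the triple line lay at 37.0 to 82.1 CPM, also below Col-0.

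TSPO, a membrane protein induced by abscisic acid that binds heme, was at 2.24, 4.39 and 4.51 CPM in Col-0 and 0.688, 0.779 and 0.355 CPM in the double line. Of the genes called, it had the lowest log2 fold change, −2.60 (SE 0.39, adjusted p = 0.0479), at levels under 5 CPM in every library. In npq4-1 and oePsbS, TSPO was at 0.131 to 1.02 and 0.0606 to 1.61 CPM, also below every Col-0 library. The triple line had 0.857 to 2.33 CPM of TSPO. SAG29, the sugar transporter SWEET15 that rises in senescing leaves, was at 10.3, 18.6 and 9.36 CPM in Col-0 and 3.88, 4.38 and 2.78 CPM in the double line (−1.79, SE 0.27, adjusted p = 0.0479). In oePsbS, SAG29 ranged from 0.264 to 10.1 CPM between libraries, wider than either group compared.

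NATA1 and ST2A both act beside the jasmonate pathway. NATA1, an acetyltransferase that makes acetylornithine and is induced by jasmonate, was at 12.9, 18.5 and 25.7 CPM in Col-0 and 7.38, 7.37 and 6.28 CPM in the double line (−1.44, SE 0.22, adjusted p = 0.0479). With water NATA1 was at 16.7 to 20.3 CPM in npq4-1, 3.88 to 19.6 in oePsbS and 7.31 to 21.7 in the triple line. ST2A, which sulfates hydroxyjasmonates, was at 21.2, 29.9 and 35.9 CPM in Col-0 and 10.3, 14.6 and 12.7 CPM in the double line (−1.21, SE 0.19, adjusted p = 0.0479). ST2A was also lower than in oePsbS, by −1.58 (SE 0.14, adjusted p = 0.000244), although that call was lost in the fit of all 30 libraries (adjusted p = 0.0979). The triple line had 6.11 to 12.5 CPM of ST2A, below every Col-0 library. The ankyrin repeat gene AT5G15500 was at 19.1, 20.6 and 15.5 CPM in Col-0 and 7.50, 9.41 and 9.24 CPM in the double line (−1.07, SE 0.14, adjusted p = 0.0191). It was also below every Col-0 library in npq4-1 (7.61 to 14.8 CPM) and oePsbS (1.94 to 8.89 CPM). The triple line had 10.4 to 16.8 CPM of AT5G15500.

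The calls of these 6 genes depended on single libraries, while those of the 5 higher genes did not. Without replicates 1, 2 or 3 of the double line, 2, 2 and 1 genes were called lower, and without replicates 1, 2 or 3 of Col-0, 13, 4 and 4. Without Col-0 replicate 1 or 2, 9 genes were called higher. The 5 higher genes were called in each of these 6 fits, and so was AT1G62290 among the lower genes.

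With DESeq2, 7 genes were higher (0.036%) and 28 lower (0.144%), including all 12 of edgeR. Of the genes it added, ERF104 and AT4G23680 were higher. The lower ones described here were picked after their values were seen. They included the abscisic acid co-receptor phosphatases HAI1 (−1.34, SE 0.35, DESeq2 adjusted p = 0.0239) and HAI2 (−1.02, SE 0.24, DESeq2 adjusted p = 0.00858), and the late embryogenesis protein LEA4-5 (−1.66, SE 0.36, DESeq2 adjusted p = 0.00166). They also included the jasmonate oxidase JRG21 (−1.45, SE 0.34, DESeq2 adjusted p = 0.00592), the ribonuclease RNS1 (−1.42, SE 0.33, DESeq2 adjusted p = 0.00642) and the trypsin inhibitor KTI1 (−2.06, SE 0.52, DESeq2 adjusted p = 0.0171). In edgeR's test of the 6 libraries these 6 genes did not pass, with adjusted p between 0.131 and 0.299.

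Other genes past a 2-fold difference without overlap did not pass in edgeR's test of the 6 libraries, although several passed under other settings. Above Col-0, the ethylene response factor ERF104 was at 3.26, 2.32 and 2.40 CPM in Col-0 and 6.38, 8.21 and 5.80 CPM in the double line (1.35, SE 0.22, adjusted p = 0.0643). It passed with the spread of all 15 water libraries (adjusted p = 0.0210), without a filter on low counts (0.0208), with a robust prior (0.0368) and without Col-0 replicate 1 (0.0426). AT4G23680, of a lipid transport superfamily, was at 1.76 to 4.62 CPM in Col-0 and 7.46 to 14.5 CPM in the double line (1.78, SE 0.36, adjusted p = 0.144). It passed without a filter (adjusted p = 0.0477) and without Col-0 replicate 3 (0.0418), and was called higher than in oePsbS, by 1.79 (SE 0.27, adjusted p = 0.00445). AT3G29000, COBL2 and AT4G18260 had log2 fold changes of 1.11 to 1.496 with adjusted p of 0.156 to 0.205, and AT3G29000 passed with limma (adjusted p = 0.0309 and 0.0324 at pseudocounts 1 and 0.1). Below Col-0, DIP2, AT5G24080 and AT4G36270 had values of −1.58 to −1.22 with adjusted p of 0.0744 to 0.108. These passed with DESeq2 and without a filter (adjusted p = 0.0238, 0.0454 and 0.0488), DIP2 also with a robust prior (0.0380) and AT4G36270 with all 30 libraries (0.0182).

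As 0.0662% of all genes were called, a count of 0 in a list of this size says nothing particular to it, and the lists are described by their values. In the list of light harvesting 0 of 21 tested members were called, with a median of 0.073 and log2 fold changes of −0.16 to 0.19. LHCB1.1 (CAB2) and LHCB2.2, antenna proteins of photosystem II, had values of 0.037 (SE 0.072) and 0.018 (SE 0.083). In the Calvin cycle 0 of 18 were called (median −0.0063, range −0.18 to 0.084) and in photorespiration 0 of 10 (median 0.021, range −0.027 to 0.051). Of 13 genes of chlorophyll synthesis, 10 lay above 0 and 0 were called. The protochlorophyllide oxidoreductase PORB was at 618, 811 and 670.4 CPM in Col-0 and 812, 965 and 1048 CPM in the double line (0.43, SE 0.12, adjusted p = 0.292). The chloroplast gene of the D1 protein, ATCG00020, had a value of −0.35 (SE 0.26, adjusted p = 0.776).

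In the list of photoprotection NPQ4 alone of 22 was called, and the median was 0.0051. ELIP1, an early light-induced protein that binds chlorophyll, was at 14.3, 20.5 and 20.0 CPM in Col-0 and 6.88, 10.6 and 11.4 CPM in the double line. The groups did not overlap, and the difference did not pass (−0.92, SE 0.19, adjusted p = 0.160). In oePsbS, ELIP1 was at 7.66, 5.03 and 4.96 CPM, also below every Col-0 library.

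Among the other 12 tested carbonic anhydrases, 0 were called, and log2 fold changes lay between −0.22 and 0.62. BCA5, a β carbonic anhydrase, was at 60.6, 56.3 and 57.1 CPM in Col-0 and 55.1, 49.6 and 44.7 CPM in the double line (−0.22, SE 0.087, adjusted p = 0.553). BCA4, the plasma membrane form, was at 151 to 159 CPM in Col-0 and 149 to 168 CPM in the double line (0.019, SE 0.070, adjusted p = 0.974). Of 14 bicarbonate-using carboxylases and 19 genes of stomatal carbon dioxide signalling and lineage, 0 were called, with medians of 0.0061 and −0.13. The receptor-like protein TMM, which sets stomatal spacing, had a value of −0.40 (SE 0.18, adjusted p = 0.611). Summed guard cell markers were at 61.0 to 63.6 CPM in Col-0 and 48.6 to 65.9 CPM in the double line.

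Abscisic acid genes mostly had lower values. Of 20 tested members, 15 lay below 0, with a median of −0.25 against −0.0011 for all genes, and RD20 alone was called. TSPO, also called lower, is not in this list. All 3 libraries of the double line lay below the 3 of Col-0 for 8 of the 20 members, where 6.47% of all genes did so. HAI2, a phosphatase that holds the pathway off until the hormone binds its receptor, was at 8.83, 7.53 and 8.96 CPM in Col-0 and 3.00, 4.32 and 5.15 CPM in the double line (−1.02, SE 0.20, adjusted p = 0.131). In oePsbS, HAI2 was at 3.93, 2.24 and 1.21 CPM, also below every Col-0 library. Singled out after their values were seen, the phosphatase HAB1 was at 63.3, 61.1 and 57.3 and 45.6, 47.4 and 47.9 CPM (−0.37, SE 0.072, adjusted p = 0.133) and the dehydrin RAB18 at 44.6, 125 and 79.7 and 24.2, 41.2 and 22.04 CPM (−1.51, SE 0.32, adjusted p = 0.175), Col-0 first. On the log2 scale the median member differed from the Col-0 mean by −0.12, 0.064 and −0.026 in the Col-0 libraries, and by −0.30, −0.20 and −0.20 in the double line. It differed by −0.42 to −0.25 in oePsbS and by −0.26 to −0.21 in npq4-1.

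Jasmonate genes also had lower values, with 22 of 24 below 0, a median of −0.39 and 0 called, or 1, VSP2, without Col-0 replicate 1. ST2A and NATA1, called lower above, are not in this list. For 9 members the double line lay below Col-0 without overlap, against 6.47% of all genes. VSP2, a vegetative storage protein and classical jasmonate output, was at 34.2, 58.0 and 92.2 CPM in Col-0 and 18.6, 31.1 and 20.6 CPM in the double line (−1.39, SE 0.30, adjusted p = 0.177). Without Col-0 replicate 1 its log2 fold change was −1.69 (adjusted p = 0.0114), and over the 6 fits that left out 1 library it lay between −1.69 and −0.97. CORI3, a cystine lyase induced by coronatine, was at 317, 255 and 284 CPM in Col-0 and 208, 214 and 231 CPM in the double line (−0.39, SE 0.088, adjusted p = 0.201). In oePsbS, CORI3 was at 195, 136 and 148 CPM, below every Col-0 library, and VSP2 at 101, 28.1 and 29.7 CPM. Among the Col-0 libraries, replicate 3 was the highest for VSP2 but not for CORI3. On the log2 scale the list's median member differed from the Col-0 mean by −0.17, −0.17 and 0.32 in the Col-0 libraries and by −0.41, −0.34 and −0.34 in the double line. JAZ10, a repressor that jasmonate itself induces, picked after its values were seen, was at 1.85, 3.64 and 15.4 CPM in Col-0 and 1.44, 2.28 and 2.78 CPM in the double line. The part of Col-0 replicate 3 in the list's median was not tested.

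The flavonoid and anthocyanin pathway had a median of −0.46, with 21 of 23 members below 0 and 0 called. PAL1, the entry enzyme of phenylpropanoid synthesis, was at 81.6, 89.9 and 94.9 CPM in Col-0 and 56.3, 73.4 and 64.9 CPM in the double line (−0.45, SE 0.10, adjusted p = 0.186). F3H, a flavanone hydroxylase, was at 53.7, 57.5 and 54.9 CPM in Col-0 and 29.8, 46.6 and 35.9 CPM in the double line (−0.56, SE 0.13, adjusted p = 0.212). The parent oePsbS had 31.6, 23.7 and 23.9 CPM of F3H and 79.3, 69.6 and 78.0 CPM of PAL1. Both genes were thus below every Col-0 library in oePsbS too. Libraries of the double line differed among themselves, the median member differing from the Col-0 mean by −0.82, −0.19 and −0.45 on the log2 scale. In the triple line it differed by 0.11 to 0.12, and in npq4-1 by −0.84 to −0.38.

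**Figure D4:**
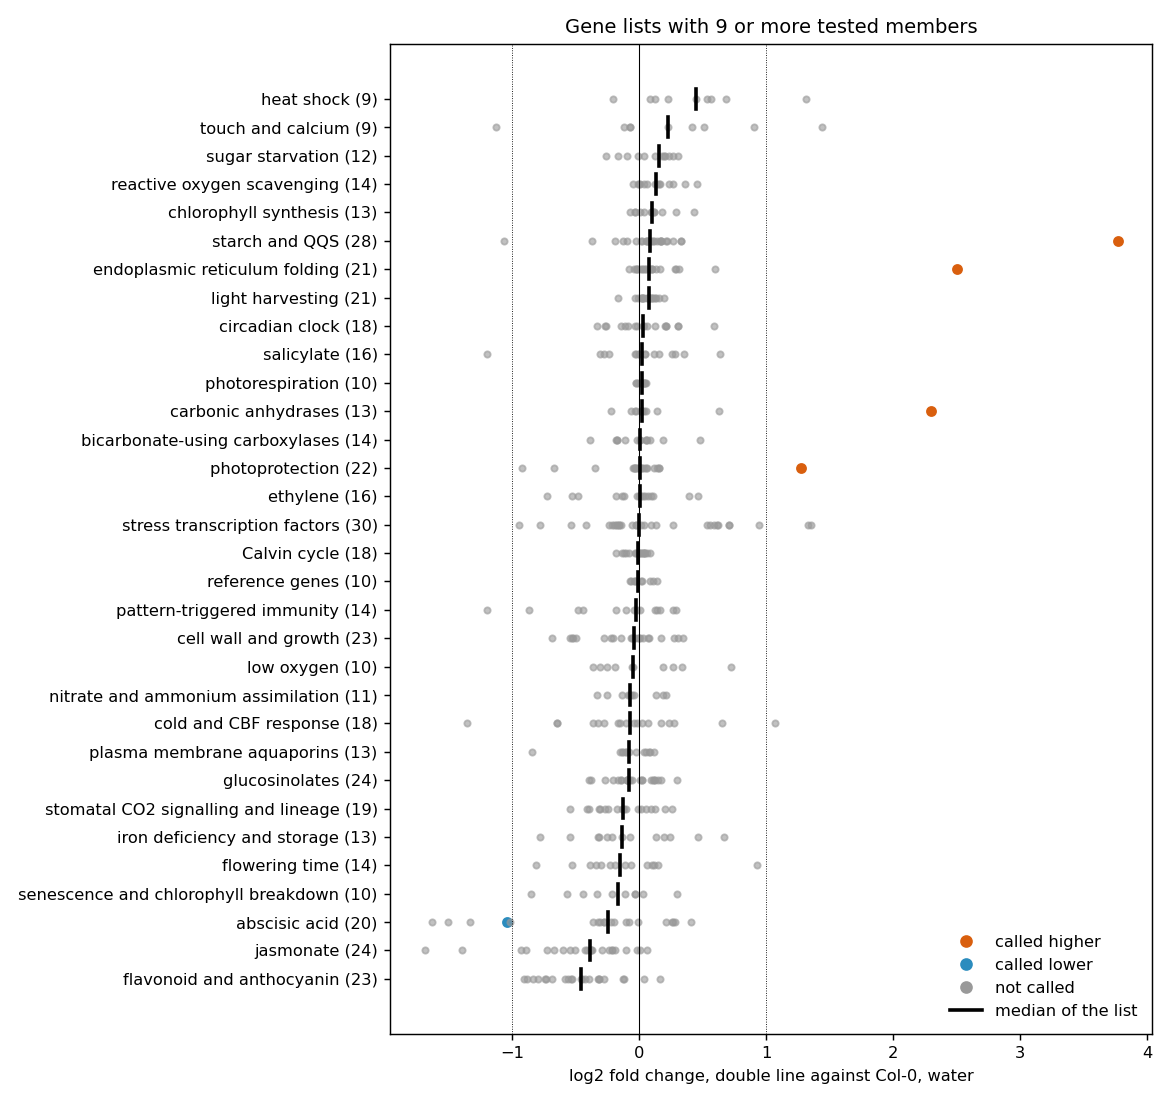
Log2 fold changes of the double line against Col-0 with water for the tested members (points, numbers in brackets) of each gene list with 9 or more tested members, with each list's median (black bars). Coloured points are called genes, which are single members (QQS, CRT3, CA1, NPQ4 and RD20), and the list medians run from −0.46 for flavonoid synthesis to 0.45 for heat shock.

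Heat shock genes had a median of 0.45, with 8 of 9 above 0 and 0 called. For 4 members the double line lay above Col-0 without overlap, as for 6.38% of all genes. HSP70 (AT3G12580), a cytosolic chaperone, was at 8.06, 8.47 and 8.73 CPM in Col-0 and 14.1, 12.9 and 13.6 CPM in the double line (0.68, SE 0.11, adjusted p = 0.0744). HSP101, the disaggregase of heat-stressed cells, was at 6.14 to 7.40 CPM and 9.17 to 10.1 CPM (0.53, SE 0.13, adjusted p = 0.256). HSP70 was called higher than in oePsbS, by 1.96 (SE 0.15, adjusted p = 7.57e-05). In oePsbS it was at 4.12, 3.27 and 3.06 CPM, below every Col-0 library.

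Of the 28 tested genes of starch metabolism and QQS, 22 lay above 0, and QQS alone was called. The median was 0.088. All 3 libraries of the double line lay above the 3 of Col-0 for 11 members, QQS included, where 6.38% of all genes did so, and below for 3, where 6.47% did so. Singled out after their values were seen, the glucan water dikinase SEX1 and the phosphoglucan water dikinase PWD, which phosphorylate starch for its breakdown, had log2 fold changes of 0.26 (SE 0.075, adjusted p = 0.307) and 0.33 (SE 0.087, adjusted p = 0.281). The β-amylase BAM1, active in guard cells and under osmotic stress, was at 121, 132 and 131 CPM in Col-0 and 96.8, 102 and 98.4 CPM in the double line, without overlap (−0.37, SE 0.068, adjusted p = 0.108). In oePsbS, BAM1 was at 95.2, 86.6 and 88.0 CPM, also below every Col-0 library.

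Of 30 stress transcription factors, several of which the study names from these same libraries, 0 were called, with a median of −0.0055. The highest member was ERF104, described above, which alone was called in 5 of the 21 alternatives. The double line lay above Col-0 without overlap for 7 members, where 6.38% of all genes did so, and below for 4, where 6.47% did so. ERF105 had a value of 1.33 (SE 0.32, adjusted p = 0.231), WRKY40 of 0.61 (SE 0.32, adjusted p = 0.685), WRKY33 of 0.27 (SE 0.12, adjusted p = 0.614) and ZAT12 (RHL41) of 0.54 (SE 0.28, adjusted p = 0.681). The cold regulator CBF2 was at 0.65 (SE 0.40, adjusted p = 0.721), ZAT6 at −0.023 (SE 0.23, adjusted p = 0.990) and the scaffold protein BT2 at −0.95 (SE 0.36, adjusted p = 0.528). BT2 was called lower than in oePsbS, by −3.34 (SE 0.34, adjusted p = 0.000494).

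FLC, the repressor of flowering, did not pass against Col-0 (0.93, SE 0.34, adjusted p = 0.520) but was called higher than in oePsbS, by 4.21 (SE 0.51, adjusted p = 0.00121). It stood at 1.22, 2.07 and 1.48 CPM in Col-0, 2.00, 2.70 and 4.38 CPM in the double line and 0.258, 0.0606 and 0.158 CPM in oePsbS. In touch and calcium genes, the calmodulin-like CML38 was at 0.320, 1.07 and 1.26 CPM in Col-0 and 2.19, 2.34 and 2.72 CPM in the double line (1.44, SE 0.40, adjusted p = 0.299). Among aquaporins PIP2;3 (RD28) was at 26.1, 26.2 and 38.0 CPM in Col-0 and 19.4, 16.5 and 14.5 CPM in the double line (−0.84, SE 0.16, adjusted p = 0.108). In the lists of the circadian clock, ethylene, salicylate, pattern-triggered immunity, cold response, touch and calcium, iron, aquaporins, glucosinolates, reactive oxygen, nitrogen assimilation, cell wall, sugar starvation, low oxygen, senescence and flowering time, 0 members were called. Their medians lay between −0.16 and 0.23, and SAG29, called lower above, is not in the list of senescence. All 10 reference genes lay between −0.072 and 0.14, among them PP2AA3 at −0.035 (SE 0.081).

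The same genotype contrast was read in 6 other libraries, given bicarbonate. There 5 genes were called (0.0274%), 4 higher (0.0219%) and 1 lower (0.00547%) of 18273. AT3G01345 (log2 fold change 10.86, SE 0.19, adjusted p = 7.92e-09), QQS (3.16, SE 0.27, adjusted p = 0.00392), CRT3 (2.60, SE 0.19, adjusted p = 0.00168) and NPQ4 (1.05, SE 0.12, adjusted p = 0.0291) were higher with bicarbonate too. AT1G62290 was lower (−1.33, SE 0.13, adjusted p = 0.00677). CA1 was at 12947, 14747 and 2409 CPM in the double line with bicarbonate and 2941 to 4288 CPM in Col-0. The library labelled double line, bicarbonate, replicate 3 thus lay below every Col-0 library in CA1. Its CRT3, at 682 CPM, and QQS, at 55.7 CPM, were as high as those of its sister libraries. CA1 had a log2 fold change of 1.48 (SE 0.51, adjusted p = 0.253) with that library and 1.95 (SE 0.16, adjusted p = 0.00575) without it, while NPQ4 had an adjusted p of 0.0841 without it. Without that library 5 genes were higher (0.027%) and 1 lower (0.00541%), together 0.0325% of 18488.

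The genes lower with water, other than AT1G62290, were not called with bicarbonate. RD20, AT5G15500, TSPO, NATA1, SAG29 and ST2A had log2 fold changes of 0.14 to 1.60 there, with adjusted p from 0.113 to 0.765. For each of them every Col-0 library with bicarbonate was below every Col-0 library with water. NATA1 was at 3.51, 3.65 and 3.25 CPM in Col-0 with bicarbonate and at 8.34, 7.57 and 5.10 CPM in the double line. The difference between the water and bicarbonate contrasts passed the test for 5 genes of 18605 (0.0269%), among the named genes for NATA1 and DIP2. For RD20, TSPO, SAG29, ST2A and AT5G15500 the difference of contrasts had adjusted p of 0.147 to 0.258.

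**Figure D5:**
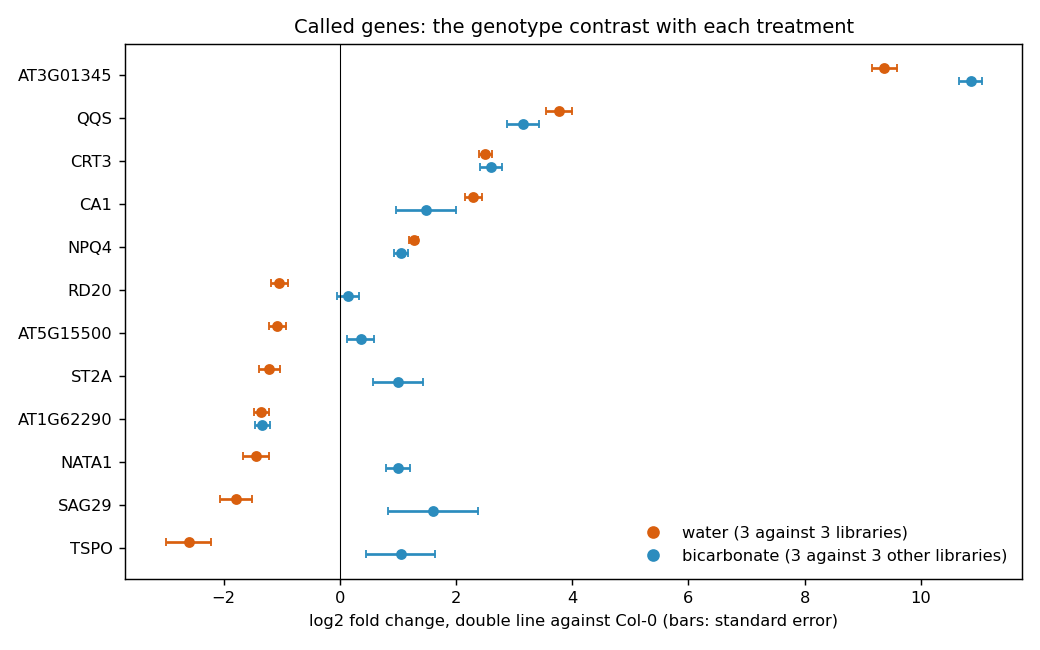
Log2 fold changes of the double line against Col-0 (points, bars are SE) for the 12 called genes with water and, in separate libraries, with bicarbonate. The 5 higher genes and AT1G62290 keep their side of 0, and the other 6 lower genes lie between 0.14 and 1.60 with bicarbonate.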

How the data were processed

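RNA of rosettes was sequenced from strand-specific mRNA libraries. The authors quantified reads with Salmon (version not given in the sources used here) on TAIR10 transcripts and deposited, per library, estimated counts and TPM of 48268 transcripts. Estimated counts were summed to 27588 genes and rounded, and TPM was used for single transcripts and for limma. Of 435 pairs of libraries 0 were identical. Samples were grouped by the labels' genotype and treatment.

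Genes passing filterByExpr (minimum count 10) were tested with edgeR 4.0.16 (R 4.3.3), TMM factors and the quasi-likelihood F test, with Benjamini-Hochberg adjustment over all genes tested. The SE was taken from the log2 fold change and F. The same test compared the double line with oePsbS, the bicarbonate libraries, and the difference of both contrasts (12 libraries). Levels are TMM-scaled CPM on 1 scale over 30 libraries. Coordinates and sequences are from the TAIR10.1 annotation (RefSeq), in which 47873 of 48069 transcripts found by name had the same length. Shared sequence was sought with blastn 2.17.0.

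Named genes were the targeted genes and PP2AA3, every gene called, the leading genes past 2-fold without overlap where fewer than 10 were called in a direction, the 2 members of smallest p of each list, the neighbours of NPQ4 and CA1, and genes the study names. The members and the 40 lists (623 members kept of 648) were chosen with earlier results of these data known. Simulated data for the double line against Col-0 with water held 18114 genes, 200 of them changed. Of genes changed 2, 3 and 4-fold, 61.2%, 100% and 100% were called, with 4 false calls. A 2-fold change lies on the threshold itself, so 61.2% is not the power to detect it. By the adjusted p alone, 95.5% of the genes changed 2-fold passed in the right direction. The changed genes were drawn only from genes above a minimum mean count, so these shares say nothing of genes with few reads. Alternatives were DESeq2 1.42.0, limma 3.58.1 on log2(TPM + 1) and log2(TPM + 0.1), other filters, factors and library sets, a replicate block, and leaving out each library. The main fit read by the adjusted p alone was also counted as an alternative. The interval of a read ratio covers counting error only.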

Additional observations from a re-analysis of the deposited data

Results flagged for a closer look

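The contrast of the double line with Col-0 differed between bicarbonate and water for NATA1, by 2.46 (SE 0.33, adjusted p = 0.0254) on the log2 scale in edgeR's test of the interaction over 12 libraries. NATA1 was at 12.9, 18.5 and 25.7 CPM in Col-0 with water and 3.51, 3.65 and 3.25 CPM with bicarbonate, and at 7.38, 7.37 and 6.28 CPM and 8.34, 7.57 and 5.10 CPM in the double line. Without double line bicarbonate replicate 3, in which CA1 was below the Col-0 level, the difference was 2.64 (SE 0.31, adjusted p = 0.0157).

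DIP2 also had a contrast that differed between bicarbonate and water, by 2.69 (SE 0.39, adjusted p = 0.0353). It was at 9.15, 8.72 and 7.19 CPM in Col-0 with water and 1.37, 2.00 and 3.44 CPM with bicarbonate, and at 2.38, 3.60 and 4.26 CPM and 4.96, 5.92 and 7.04 CPM in the double line. Without double line bicarbonate replicate 3 the difference was 2.56 (SE 0.41, adjusted p = 0.0675) and no longer passed.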

How the results depend on the processing

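Over 21 alternatives, AT3G01345, CRT3, QQS, CA1 and AT1G62290 kept their direction and their side of the threshold in all 21, NPQ4 in 19, AT5G15500 and RD20 in 13, TSPO and SAG29 in 10, and NATA1 and ST2A in 8. Among the 21 is the main fit read by the adjusted p alone, in which a called gene could not change. The number of genes called higher was 5 in the main fit. It was 7 with DESeq2 or no filter on low counts, and 6 with a robust prior or limma. It was 4 with all 30 libraries, and 5 to 9 when 1 library was left out. With all 15 water libraries it was 5, of which 4 were among the 5 of the main fit. The number called lower was 7 in the main fit. It was 2 with the spread of all 15 water libraries, 4 with all 30 and 28 with DESeq2. It was 3 with upper-quartile factors, 11 without a filter, and 4 with 1 CPM required in 3 libraries. It was 3 with NPQ4 and CA1 left out of the normalization, and 4 with a robust prior. It was 1 with limma at either pseudocount, and 1 to 13 when 1 library was left out. Not all of these genes were among the 7 of the main fit. With all 30 libraries 1 of the 4 was, and with a robust prior 3 of the 4. Without Col-0 replicate 2 or 3 the share was 3 of 4, and without double line replicate 1 or 2 it was 1 of 2. Replicate numbers did not pair the samples (correlations of same-numbered deviations 0.187, −0.0436 and −0.1003), and with a replicate block 5 genes were higher and 10 lower.

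Values near 0 changed sign. ZAT6 was 0.0121 with the replicate block and 0.0055 and 0.013 with limma at pseudocounts 1 and 0.1, and LHCB2.2 was −0.0042 with limma at both. PP2AA3 in the bicarbonate contrast was −0.0291 without double line bicarbonate replicate 3. Leaving out 1 library gave CA2 −0.0089 to 0.0863, PP2AA3 −0.0817 to 0.0274, SEP1 −0.6471 to 0.3195, OPT3 −0.4927 to 0.0222, PDF1 −0.4018 to 0.0016, GLDP1 −0.0176 to 0.1137, PGLP1 −0.0214 to 0.0905, PYK10 −0.2056 to 0.5479, PUP11 −0.0201 to 0.1614, ZAT6 −0.2012 to 0.2887 and LHCB2.2 −0.0218 to 0.0914. None of these passed the test. The causes were not tested. Of 2161 values of named genes under the alternatives, 2051 kept direction and side of the threshold. The values of the main fit by the adjusted p alone are counted among them.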
